A study of Mus musculus with 6 samples.

Results

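The proteoglycan genes of liver matrix comprised 10 members, namely 5 small leucine-rich genes (Dcn, Lum, Bgn, Fmod and Ogn), the large matrix proteoglycan Vcan and the 4 syndecans (Sdc1 to Sdc4). They were found by gene name among the non-control spots of the array, with Vcan under its older name Cspg2, out of 27670 gene names in all. Together they had 20 probes, and 9 of the 10 members were bright enough to be tested among 15911 genes. Total RNA from livers of male C57BL/6J mice, an inbred laboratory strain, had been labelled with the dye Cy3 and hybridised to Agilent whole-genome mouse arrays. The CFD diet (choline- and folate-deficient) group of 3 arrays had eaten for 12 weeks a food low in methionine (0.17%) without choline or folic acid. The control group (3 arrays) had eaten the same base for 12 weeks with methionine at 0.4%, choline bitartrate at 0.3% and 2 mg/kg of folic acid. That shared base was made from defined amino acids and supplemented with iron, so both groups carried the iron supplement. All mice were 8 weeks old at the start and 20 weeks old at death. The labels do not state that each array came from a separate mouse, and the p-values therefore reflect how these samples scatter, part of which may be technical.

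Proteoglycans are proteins that carry long sulfated sugar chains, the glycosaminoglycans. The small leucine-rich members sit in the matrix, bind collagen fibrils and mostly carry chondroitin, dermatan or keratan sulfate. In liver they are known chiefly as products of stellate cells and fibroblasts. Versican is a large chondroitin sulfate carrier that binds hyaluronan. Syndecans cross the cell membrane and hold growth factors, enzymes and lipoproteins on heparan sulfate chains, and the syndecan of hepatocytes takes up lipoprotein remnants.

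In CFD diet livers 4 members were called higher (Lum, Ogn, Dcn and Bgn) and 2 lower (Sdc4 and Sdc2). Every called rise was in a small leucine-rich gene and both called falls were in syndecans. Fmod, Sdc1 and Sdc3 were not called, and Vcan could not be tested. The arrays measured whole tissue, in which a change in cell number and a change in RNA per cell cannot be told apart. A call means an adjusted p below 0.05 in limma's moderated test with Benjamini-Hochberg adjustment over all genes tested. The diet groups differed widely across the array: 23.7% of tested genes were called higher, 27.4% lower and 51.1% in either direction. Scaled to each array's median instead, 18.4% were higher and 36.5% lower. Among 23484 tested probes 49.7% were called, against 8 of the members' 12 tested probes. The groups did not overlap for 6 of the 9 tested members, which compares with 63.0% of all tested genes. Counts of calls near these shares are no result about the members, so the sizes and the values on each array carry the description below. CFD diet replicate 2 lay closer to control than the other CFD diet arrays did: over all tested genes it correlated at 0.948 to 0.951 with the control arrays, against 0.913 to 0.925 for the other CFD diet arrays. Without it the same counts of 4 higher and 2 lower members were called, and Lum was 2.71, Ogn 1.62, Dcn 1.34, Bgn 1.00, Fmod 1.07, Sdc1 -0.42, Sdc2 -0.45, Sdc3 0.27 and Sdc4 -1.33 on the log2 scale. Signals were scaled to each array's 75th percentile, and on that scale all tested genes had a median log2 fold change of -0.11.

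Promoter sequences were matched in RefSeq (GRCm38.p6) for 7 of the 10 members, without Dcn, Lum and Sdc2. Those of 2 risen members and of the fallen Sdc4 are shown because these genes moved in opposite directions. Each runs from 250 bases before the annotated start to 50 bases after it on the gene's own strand. Capitals mark matches, on either strand, to the GC box GGGCGG, the TATA box TATAAA or the TEAD site CATTCC; the AP-1 site TGANTCA was searched too. The sequences are, in order, the Ogn promoter at chr13:49607765-49608064 (plus strand), the Bgn promoter at chrX:73483351-73483650 (plus strand) and the Sdc4 promoter at chr2:164443139-164443438 (minus strand).
Ogn: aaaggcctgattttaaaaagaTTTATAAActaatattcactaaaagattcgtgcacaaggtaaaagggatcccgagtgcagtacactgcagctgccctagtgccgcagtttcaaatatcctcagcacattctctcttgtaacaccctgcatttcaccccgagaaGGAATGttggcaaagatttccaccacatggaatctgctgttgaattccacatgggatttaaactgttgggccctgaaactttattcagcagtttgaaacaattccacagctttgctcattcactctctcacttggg
Bgn: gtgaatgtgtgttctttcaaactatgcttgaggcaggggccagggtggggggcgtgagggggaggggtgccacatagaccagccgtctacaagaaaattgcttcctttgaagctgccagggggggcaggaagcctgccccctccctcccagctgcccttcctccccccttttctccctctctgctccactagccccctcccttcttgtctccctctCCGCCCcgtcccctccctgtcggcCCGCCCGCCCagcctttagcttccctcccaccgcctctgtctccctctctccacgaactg
Sdc4: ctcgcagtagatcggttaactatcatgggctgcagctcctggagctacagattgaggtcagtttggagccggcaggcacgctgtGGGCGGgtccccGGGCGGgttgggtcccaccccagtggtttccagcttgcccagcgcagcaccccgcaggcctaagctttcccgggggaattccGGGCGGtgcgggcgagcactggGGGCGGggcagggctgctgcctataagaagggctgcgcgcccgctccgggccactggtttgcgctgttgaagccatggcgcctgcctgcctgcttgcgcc

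The Ogn promoter held no GC box, had 4 CG dinucleotides and was 42.3% G or C. It had a CATTCC match 86 bases before the start and a TATAAA pair, on opposite strands and overlapping each other, 229 and 227 bases before it. The Bgn promoter had 3 GC boxes, of which those 10 and 6 bases before the start overlap, and 9 CG dinucleotides, and was 63.7% G or C. Sdc4 had 4 GC boxes, 22 CG dinucleotides and 67.7% G or C. Across 32851 RefSeq promoters of the same length the medians were 52.7% G or C and 7 CG dinucleotides. A GC box occurred in 35.7% of those promoters, TATAAA in 13.6%, CATTCC in 14.7% and TGANTCA in 7.81%. The other matched members were Sdc1, Sdc3, Vcan and Fmod: Sdc1 and Sdc3 had 3 GC boxes each, Vcan had 2 and Fmod had 0. Ogn was the only matched member with a TATAAA or a CATTCC match, and none of the 7 matched TGANTCA. G or C content of the 7 promoters ran from 42.3% (Ogn) to 77.7% (Sdc3), and CG dinucleotides from 3 (Fmod) to 44 (Sdc3). These matches describe letters in a window. The printed promoters were chosen by direction of change, but a link between the matches and the diet response was not tested.

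Lum, the gene of lumican, a keratan sulfate proteoglycan that regulates collagen fibril assembly, had the largest fold change among the 9 tested members. Its probe lies at chr10:97135063-97135122 of the mm7 build, from which all probe positions below are taken; exons and introns were not analysed here. Relative signal, the processed signal divided by its array's 75th percentile, was 11.2, 15.5 and 14.8 in CFD diet livers, against 2.21, 2.15 and 1.61 in control livers. All CFD diet arrays lay far above all control arrays. The log2 fold change was 2.80 ± 0.19 (SE, n = 3 each), a 6.95-fold rise with an adjusted p of 0.000145 and a 95% interval of 2.34 to 3.25. Ogn, the gene of osteoglycin, also a collagen-binding small proteoglycan, read 0.629, 0.683 and 0.641 in CFD diet livers, against 0.328, 0.141 and 0.192 in control livers (chr13:49108057-49108116). The CFD diet values lay close together, and the control values were lower and more scattered. Its log2 fold change was 1.65 ± 0.29, or 3.14-fold, with an adjusted p of 0.00454 and a wider interval of 0.95 to 2.35.

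Dcn, the gene of decorin, which binds collagen fibrils and transforming growth factor beta, read 160.4, 143 and 164 in CFD diet livers, against 65.9, 67.8 and 59.3 in control livers (chr10:97080086-97080145). The groups were well apart and each was narrow. The log2 fold change was 1.28 ± 0.12, or 2.42-fold, with an adjusted p of 0.00048 and an interval of 0.98 to 1.57. The other Dcn probe, matched to a different transcript record (chr10:97043200-97043259), passed the software's background flag on 2 of the CFD diet arrays and on 1 control array and was not tested. Bgn, the gene of biglycan, which carries chondroitin or dermatan sulfate and, once released, is known to act on Toll-like receptors, read 1.504, 1.46 and 2.17 in CFD diet livers, against 0.921, 0.834 and 0.963 in control livers (chrX:68879864-68879923). CFD diet replicate 3 was the highest, and the lowest CFD diet value still exceeded all control values. The log2 fold change was 0.90 ± 0.18, or 1.86-fold, with an adjusted p of 0.00709 and an interval of 0.46 to 1.33. The other Bgn probe passed that flag on 1 array of CFD diet livers and on 0 of control livers.

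Fmod, the gene of fibromodulin, which takes part in collagen fibril assembly and crosslinking, did not pass. It read 0.167, 0.164 and 0.359 in CFD diet livers, against 0.198, 0.0834 and 0.0962 in control livers (chr1:133937206-133937265). CFD diet replicate 3 stood above the rest, while control replicate 1 lay above the other CFD diet arrays. The log2 fold change was 0.88 ± 0.43, with a 95% interval of -0.14 to 1.89 and an adjusted p of 0.127. Without control replicate 1 it was 1.26 (adjusted p 0.0403). Leaving out CFD diet replicate 3 gave 0.50 (adjusted p 0.336), so the value and the call rest on which array is kept.

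**Figure D1:**
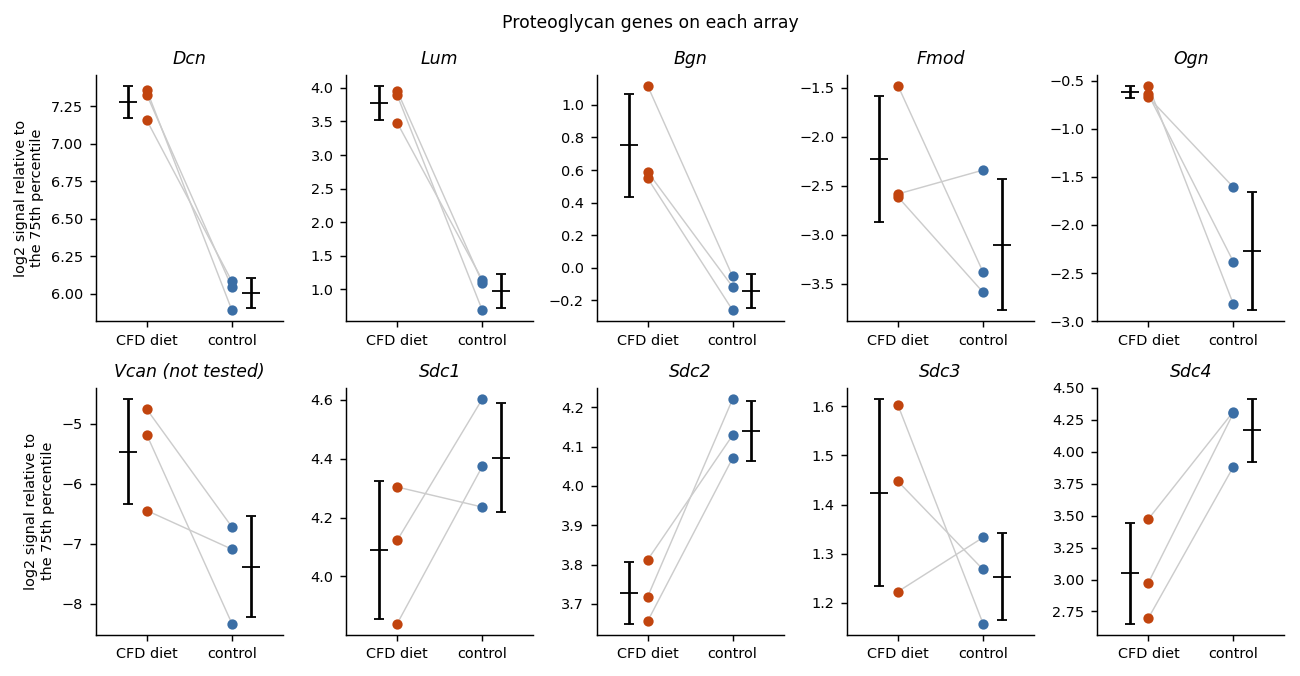
Log2 relative signal (vertical axes, scaled separately in each panel) of the 10 members on each array, CFD diet left of control; points are arrays, grey lines join arrays that shared a slide, and black bars give the mean ± SD (n = 3). Lum, Ogn, Dcn, Bgn, Sdc2 and Sdc4 have groups that do not overlap; the Vcan panel shows the probe that cleared background on 2 arrays of CFD diet livers and 0 of control livers, and it was not tested.

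Per the file headers, each of the 3 slides carried the CFD diet and the control array of the same replicate number, scanned together, and gives a difference of its own. Within slides the log2 difference of Lum was 2.34, 2.85 and 3.20. For Ogn it was 0.94, 2.27 and 1.74. The differences of Dcn were 1.28, 1.07 and 1.47, and those of Bgn 0.71, 0.81 and 1.17. All 4 called small leucine-rich members had positive differences on every slide, which follows from groups that do not overlap and adds nothing to it. Fmod, whose groups overlapped, gave -0.24, 0.97 and 1.90. Stellate cell and myofibroblast markers moved with the small leucine-rich members: 11 of 12 tested were called higher, 0 lower, and their summed relative signal was 58.4 to 76.8 in CFD diet livers, against 19.8 to 22.1 in control livers. Col1a1, Col1a2 and Col3a1 are in this list and also in the collagen list below. Acta2 rose by 0.47 on the log2 scale on its brightest tested probe, a call lost in 6 of 15 alternative settings. The mean of its tested probes gave 2.64. Portal fibroblast and mesothelial markers gave 6 of 9 higher, with sums of 28.5 to 41.0 in CFD diet livers, against 17.0 to 17.7 in control livers. Control replicate 1, the highest control array for Fmod and Ogn, was also the highest control array for the mesothelial gene Msln. The log2 relative signal of Msln was 0.80, 0.49 and 1.38 in CFD diet livers, against 0.31, -1.26 and -2.32 in control livers. Its call was lost in 8 of 15 alternative settings. Without that array 8 of the 9 markers were called higher. The part of these cells in the members' rises was not tested.

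Vcan, the gene of versican, had 5 probes on the minus strand of chromosome 13, and 4 of them were well above background on 0 arrays. The remaining probe, at chr13:86731633-86731692, cleared background on 2 arrays of CFD diet livers and 0 of control livers. It read 0.0274, 0.0114 and 0.0369 in CFD diet livers, against 0.0031, 0.00732 and 0.00948 in control livers. These values lie near the detection limit, and no lower bound on a fold above 1 could be given. With the filter on dim probes lifted, the log2 fold change was 1.92 ± 0.60 with an adjusted p of 0.0829.

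Among the syndecans Sdc4, a component of focal adhesions, was lower in CFD diet livers. Its gene-level probe, the brightest of a gene's tested probes, read 6.49, 11.1 and 7.86 in CFD diet livers, against 14.8, 19.9 and 19.7 in control livers (chr2:164165270-164165329). The highest CFD diet value, replicate 2, was still below the lowest control value. It fell by 1.12 ± 0.23 on the log2 scale, to 0.461 of control, with an adjusted p of 0.00763. A second Sdc4 probe (chr2:164166365-164166424) read 1.06, 1.41 and 1.01 in CFD diet livers, against 2.61, 3.09 and 2.57 in control livers. It too separated the groups, with a log2 fold change of -1.26 ± 0.17 and an adjusted p over all probes of 0.00167. Within slides the differences of the gene-level probe were -1.19, -0.84 and -1.33.

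Sdc2, a syndecan known from fibroblasts and liver, was lower by a smaller amount. It read 12.6, 14.1 and 13.2 in CFD diet livers, against 16.8, 17.5 and 18.7 in control livers (chr15:33143072-33143131). The groups did not overlap, and the gap between them was narrow. It fell by 0.41 ± 0.11 on the log2 scale, to 0.752 of control, with an adjusted p of 0.0227. A second probe (chr15:33141162-33141221) read 8.33, 12.7 and 9.31 in CFD diet livers, against 16.3, 18.4 and 20.2 in control livers. Its log2 fold change was -0.87 ± 0.19 with an adjusted p over all probes of 0.00902. The call on the gene-level probe depended on the processing: with the slide as a replicate block the adjusted p was 0.0541, and under quantile normalization the log2 fold change was -0.09 with an adjusted p of 0.473. It was also lost when any control array, or CFD diet array 1 or 3, was left out (adjusted p 0.0506 to 0.0984). Within slides the differences were -0.41, -0.32 and -0.50. In the main processing hepatocyte markers moved with Sdc4 and Sdc2: 6 of 9 were called lower and 0 higher. Their sums were 1513 to 2330 in CFD diet livers, against 2397 to 2941 in control livers. Under quantile normalization 2 of the 9 were called lower, with a median log2 fold change of -0.305. Without the filter on dim probes 3 were called lower. The part of the hepatocyte marker change in the syndecan values was not tested.

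Sdc1, the main syndecan of hepatocytes and other epithelia, read 14.3, 19.8 and 17.4 in CFD diet livers, against 20.7, 18.9 and 24.3 in control livers (chr12:8818810-8818869). The groups overlapped, since CFD diet replicate 2 lay above control replicate 2. The log2 fold change was -0.32 ± 0.17, with a 95% interval of -0.72 to 0.09 and an adjusted p of 0.158. Its sign turned under quantile normalization (0.02). Sdc3, a syndecan best known from nerve and muscle, read 2.73, 2.33 and 3.04 in CFD diet livers, against 2.41, 2.52 and 2.23 in control livers (chr4:130040519-130040578). These groups overlapped as well, at a log2 fold change of 0.17 ± 0.14, a 95% interval of -0.16 to 0.50 and an adjusted p of 0.337. A second Sdc3 probe (chr4:130037404-130037463) gave the opposite sign, -0.25 ± 0.15, with an adjusted p over all probes of 0.211. The third Sdc3 probe cleared background on 1 array of CFD diet livers and 0 of control livers.

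**Figure D2:**
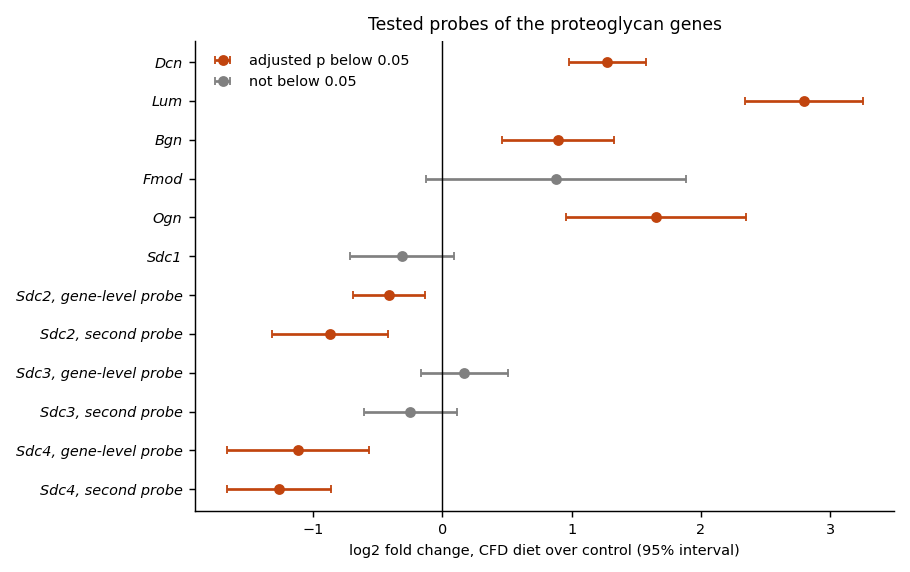
Log2 fold change, CFD diet over control, of the 12 tested probes of the members, with 95% intervals from the fit across all probes (n = 3 arrays per group); the gene-level probe of a gene is listed above its second probe. The intervals of Lum, Ogn, Dcn and Bgn lie above 0, those of both Sdc2 and both Sdc4 probes lie below 0, and those of Fmod, Sdc1 and Sdc3 include 0.

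The ratio of 2 members on the same array was compared for 16 pairs within the small leucine-rich and syndecan families, which shows unequal change without the scaling between arrays. In 8 pairs the groups did not overlap; among all pairs of tested genes 64.1% did not, so this count sets the members in no way apart. The pairs share members, Lum in 4 of the 8 and Sdc4 in 3. The log2 ratio of Lum over Bgn was 3.02 ± 0.34 in CFD diet livers and 1.12 ± 0.33 in control livers (SD, n = 3 each), and Dcn over Lum was 3.51 ± 0.32 in CFD diet livers and 5.03 ± 0.16 in control livers. Lum over Fmod differed by 1.92 and Lum over Ogn by 1.15 between the diets. Sdc3 over Sdc4 averaged -1.63 ± 0.55 in CFD diet livers and -2.91 ± 0.27 in control livers, and Sdc2 over Sdc4 averaged 0.68 ± 0.31 in CFD diet livers and -0.03 ± 0.19 in control livers. Sdc1 over Sdc4 differed by 0.80 and Sdc2 over Sdc3 by -0.58. Each of these 8 ratios had a two-sided exact permutation p of 0.1, the smallest that 3 arrays against 3 allow, and an adjusted p of 0.2 over the 16 ratios, so none passed.

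**Figure D3:**
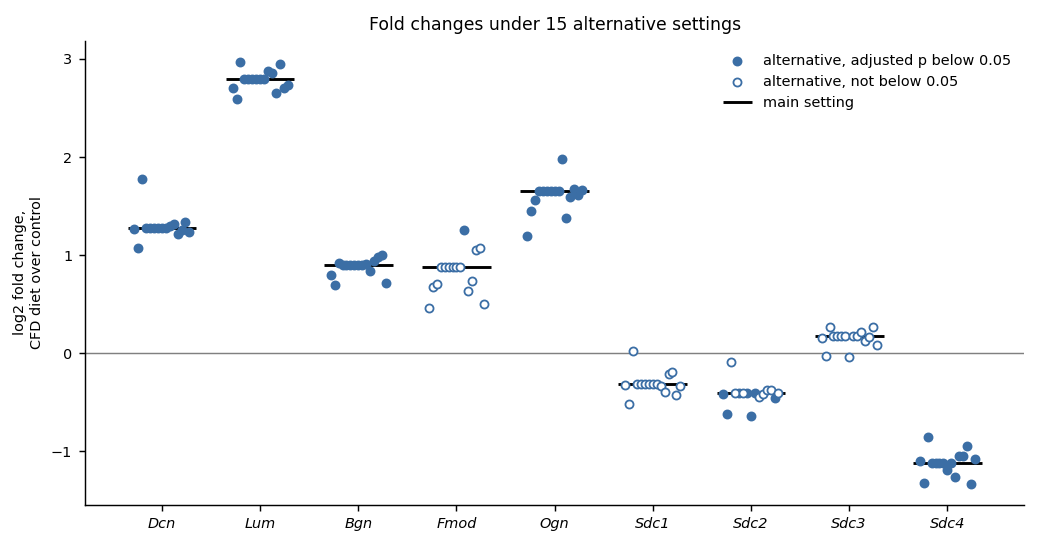
Log2 fold change, CFD diet over control, of the 9 tested members under the main setting (black bars) and 15 alternative settings (circles, filled where the adjusted p was below 0.05). Lum, Ogn, Dcn, Bgn and Sdc4 have only filled circles, whereas Sdc2 has 8 open ones and Fmod has 1 filled circle.

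Related genes were described over fixed lists, by count and median, beside the array-wide shares above. Among other small leucine-rich proteoglycans 3 of 8 tested genes were called higher and 2 lower, with a median log2 fold change of 0.38. Omd (osteomodulin) rose by 0.78 ± 0.13 with an adjusted p of 0.00375. Nyx (nyctalopin) was at least 1.65-fold higher in CFD diet livers in the main processing. Here and below, such a bound replaces the fold where a probe was not well above background on any control array. It sets the CFD diet mean against the dimmest signal flagged well above background on each control array, or the probe's own if higher. The bound is approximate and holds for the main processing only. With normexp background correction the folds of the genes given a bound lay below it. Optc (opticin) rose by 2.12 ± 0.57 and was well above background on 1 control array. Under normexp background correction Nyx and Optc lost their calls. Chad (chondroadherin) fell by 0.99 on the log2 scale, but by 0.34 and without a call under normexp. Tsku (tsukushi) fell by 0.95 and lost its call in 6 alternatives, the slide as a block among them. In RefSeq gene order Dcn, Lum, Kera and Epyc follow one another, and neither Kera nor Epyc was well above background on any array. Omd lies next to Ogn, and beyond it Aspn was well above background on 0 arrays and Ecm2 had a log2 fold change of 0.42 with an adjusted p of 0.115. Optc is separated from Fmod by Prelp, which had a log2 fold change of 0.34 with an adjusted p of 0.105.

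Large and basement membrane proteoglycans and link proteins gave 1 higher and 2 lower calls among 7 tested genes, with a median of -0.36. The link protein gene Hapln4 rose by 1.40 ± 0.18. Col18a1, a basement membrane collagen with heparan sulfate chains, fell by 0.90. Other cell surface and granule proteoglycans gave 5 higher and 3 lower calls among 11, with a median of 0.59. The glypican Gpc3, an oncofetal membrane proteoglycan, rose by 3.97 ± 0.62 (1.69 under normexp), with 1 control array well above background. Gpc1 rose by 2.42 ± 0.14 with an adjusted p of 9.72e-05, and Esm1, the gene of the endothelial product endocan, rose by 2.03 ± 0.32. Cspg5 was lower (-2.15 ± 0.38, and -0.92 under normexp).

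Enzymes that build chondroitin and dermatan sulfate, the chain types of decorin and biglycan, gave 9 higher and 2 lower calls among 16 tested genes, with a median log2 fold change of 0.46. The chondroitin polymerising factor Chpf had log2 relative signals of -0.26, -0.53 and -0.20 in CFD diet livers, against -2.38, -2.64 and -2.34 in control livers. Its groups were far apart, and it rose by 2.13 ± 0.15 with an adjusted p of 0.000157. The sulfotransferases Chst12 (1.45 ± 0.27) and Ust (1.37 ± 0.21) also rose. The sulfotransferase Chst7 fell by 1.31, and Csgalnact1, which starts chondroitin chains, fell by 0.58. Under normexp Ust and Csgalnact1 lost their calls and Chst12 was 0.54.

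Enzymes of heparan sulfate, the chain type of syndecans, gave 6 higher and 3 lower calls among 17 tested genes, with a median of -0.05. Ndst1, the N-deacetylase and N-sulfotransferase that begins sulfation of the chain, had log2 relative signals of 4.63, 4.995 and 4.67 in CFD diet livers, against 5.63, 5.68 and 5.74 in control livers. It fell by 0.92 with an adjusted p of 0.00254 on its brightest probe, and the mean of its 4 tested probes gave -0.61. Ndst2 fell by 0.56 and lost its call in 6 alternatives, and the sulfotransferase Hs6st1 fell by 0.67 (-0.36 under quantile normalization). The sulfotransferases Hs3st1, at least 3.68-fold higher in CFD diet livers, and Hs6st2, at least 3.70-fold higher, moved the other way. Under normexp their log2 fold changes were 0.71 and 0.65, and Hs6st2 was not called. The chain-elongating Extl1 rose by 1.28 ± 0.35, was 0.65 under normexp and lost its call in 5 other alternatives. Outside the 3 largest rises, Hs2st1 rose by 0.93 ± 0.14 (0.60 as the mean of its probes) and kept its call in every alternative. Hs3st3a1 (1.09) lost its call under normexp, and Glce (0.54) lost its call in 6 alternatives. No test of the difference between the chain types was made.

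**Figure D4:**
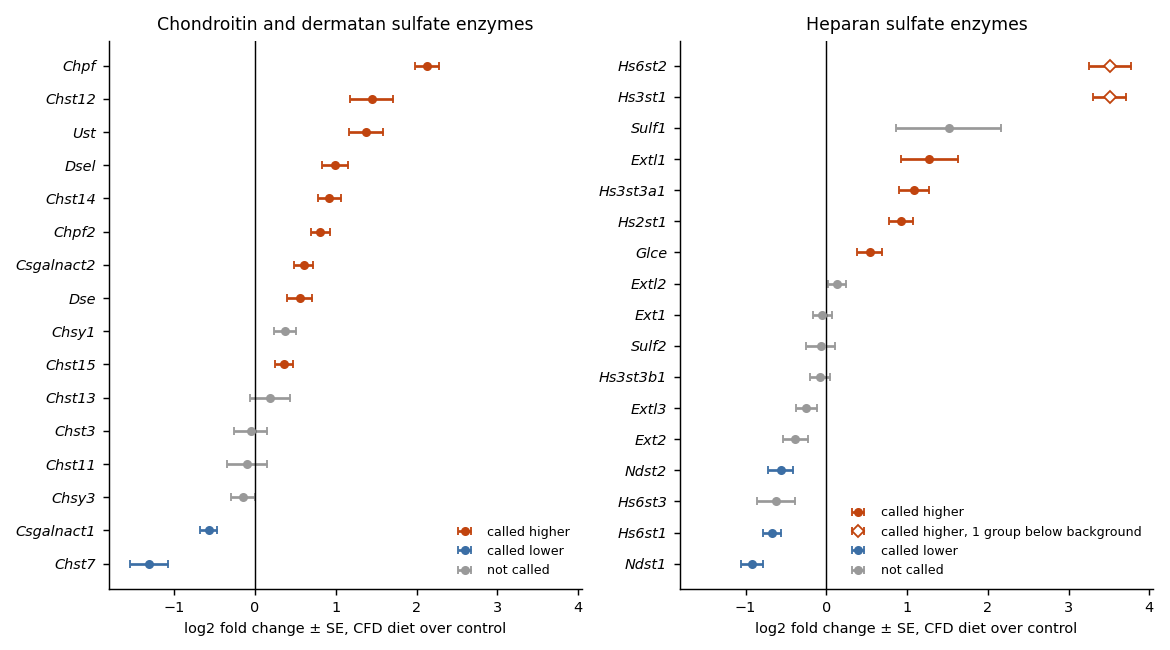
Log2 fold change ± SE, CFD diet over control, of tested chondroitin and dermatan sulfate enzymes (left) and heparan sulfate enzymes (right), sorted by value (n = 3 arrays per group). On the left 9 of 16 genes were called higher and 2 lower; on the right 6 of 17 were called higher and 3 lower, and open diamonds mark genes whose control arrays were all at background, where the plotted fold is no measurement.

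Enzymes of the linkage region that joins chain and protein gave 1 higher call and 2 lower among 9, with a median of -0.12; the galactosyltransferase B3galt6 rose by 1.02 ± 0.12. Sulfate donor synthesis and import gave 1 higher and 3 lower among 8, with a median of -0.07; the donor synthase Papss2 fell by 1.24. Lysosomal enzymes that degrade the chains gave 2 higher and 3 lower among 14, with a median of -0.01; Arsb fell by 1.16.

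Proteases known to cleave matrix proteoglycans or shed syndecans gave 10 higher calls and 1 lower among 13 tested genes, with a median of 1.40. Mmp7, which sheds syndecans, had log2 relative signals of 2.77, 3.80 and 3.32 in CFD diet livers, against -2.64, -5.05 and -5.86 in control livers, where 1 array was well above background. It rose by 7.81 ± 0.79 with an adjusted p of 0.000564. Mmp2 rose by 2.77 ± 0.21 and the versican-cleaving Adamts9 by 2.75 ± 0.21, while Bmp1, which trims the biglycan precursor, fell by 1.05. Partners of the syndecan cytoplasmic tail gave 4 higher and 4 lower calls among 9, with a median of -0.09. Sdcbp2 rose by 5.03 ± 0.30, the membrane linker Ezr by 1.94 ± 0.23 and Sdcbp, the gene of syntenin, by 0.96 ± 0.13. The membrane adaptor Synj2bp fell by 1.07.

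Fibrillar collagens, to which decorin and lumican attach, and their listed partners gave 14 higher calls and 1 lower among 15. The median was 2.06. Besides collagens the list held Fn1, Fbln1, Fbln2, Fbn1, Tgfb1, Tgfb2, Tgfb3, Ccn4, Postn and Thbs1, so its counts are not those of collagens alone. Fbln1 and Tgfb2 each lost their call in 9 of 14 alternatives. Col1a1 rose by 3.64 ± 0.25, Col5a2 rose by 3.26 ± 0.24 and Thbs1 (thrombospondin) was at least 5.53-fold higher in CFD diet livers, with a log2 fold change of 0.88 under normexp. Fn1, the fibronectin gene, fell by 0.80 and lost its call under quantile normalization. Genes of hyaluronan, the partner of versican, gave 2 higher and 7 lower calls among 15, with a median of -0.11. The lower calls were those of Hyal1, Hyal3, Cemip, Stab2, Itih1, Itih4 and Ambp, so they mix different functions. Under normexp Hyal3 and Cemip lost their calls, which left 5 lower. Cd44 is also counted in the cell surface list above, and Lyve1 and Stab2 among the sinusoidal markers below. The receptors Cd44 and Lyve1 rose by 1.91 ± 0.26 and 1.74 ± 0.18. Itih1, a plasma protein that attaches to hyaluronan, fell by 2.01. The 3 hyaluronan synthases were not tested, and a Has1 probe cleared background on at most 2 arrays of CFD diet livers and 1 of control livers.

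**Figure D5:**
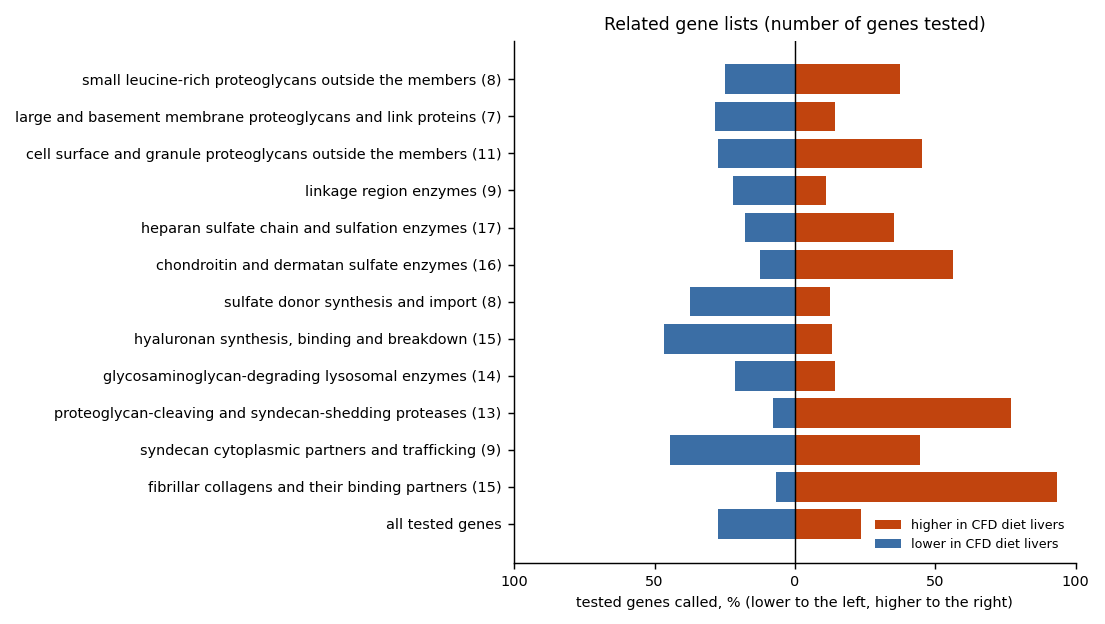
Share of tested genes called higher (right) and lower (left) in CFD diet livers, in percent, for the 12 related lists, with the number tested in brackets and all tested genes at the bottom (n = 3 arrays per group). Fibrillar collagens and partners (14 of 15 higher) and cleaving proteases (10 of 13 higher) stand beside 23.7% higher for all tested genes, and the hyaluronan list has 7 of 15 lower beside 27.4%.

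All 9 hepatocyte markers on the array were tested, and the liver label held: log2 relative signals of Alb were 9.18, 10.03 and 9.27 in CFD diet livers, against 9.66, 10.2 and 10.1 in control livers. Sinusoidal endothelial markers gave 5 of 10 lower and 1 higher (Lyve1), with sums of 30.0 to 38.4 in CFD diet livers, against 45.5 to 50.2 in control livers. Markers of bile duct epithelium, where syndecans are also made, were called higher for 8 of 10, with sums of 89.4 to 123.7 in CFD diet livers, against 6.37 to 9.55 in control livers. Kupffer cell and macrophage markers gave 7 of 10 higher and 2 lower, with sums of 181.9 to 235.8 in CFD diet livers, against 112.8 to 151.7 in control livers. The lower ones were the resident Kupffer cell markers Clec4f (-0.73) and Timd4 (-1.80), whose calls ended in 7 and 6 alternatives. All 5 tested neutrophil markers were higher, with sums of 18.9 to 25.1 in CFD diet livers, against 1.39 to 2.37 in control livers. Plasma and B cell markers, which bear on Sdc1 because plasma cells carry it, gave 1 higher and 2 lower calls among 6, with sums of 0.842 to 1.13 in CFD diet livers, against 0.901 to 1.57 in control livers. T and NK cell markers gave 1 lower call among 8. Markers of fat, muscle and gallbladder or gut gave 3 higher and 1 lower among 4 (0 higher under normexp), and 6 of the 10 were not tested. Their sums were 0.103 to 2.90 in CFD diet livers, against 1.84 to 16.2 in control livers. The lower call was the fat gene Cfd (-6.27), lost in 9 of 15 alternatives. As the only fall, Cfd accounts for the lower sums. What these other markers contribute to the members' values was not tested.

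For each called member the 3 tested genes with the most similar pattern over the 6 arrays were found by Pearson correlation, which here mostly follows the difference between the diets and is given as a description. They were Arhgap15, Il1rn and Sgcb for Dcn; Tesc, Ak1 and Oscp1 for Lum; and Sike1, Map1s and Poglut3 for Bgn. Ogn was followed most closely by Nup43, Ackr3 and Bambi. Sdc2 had Xpo5, Rtn4ip1 and 2610507B11Rik, and Sdc4 had Dvl1, Tesmin and Hdhd5. The correlations of these 18 pairs lay between 0.993 and 1.00.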

How the data were processed

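Groups came from the labels. Per the file headers, the deposited scanner files hold intensity per spot, background-subtracted by Agilent Feature Extraction 10.5.1.1 (10.7 per the submitters' processing notes), with probe positions on mm7. Across arrays 21740 to 29108 of 41174 probes were well above background and 0 spots were saturated. The number of arrays limits precision. The 75th percentile signal was 617.8, 404.1 and 670.2 on the CFD diet arrays, against 438.8, 365.0 and 402.2 on the control arrays. Brightness before scaling thus differed with diet, and only CFD diet replicate 2 lay within the control range. Control and outlier spots were left out, probe spots were averaged, and log2 signals had each array's 75th percentile subtracted. A probe was tested if well above background on all 3 arrays of a group; a gene took its brightest tested probe. Gene names were updated through RefSeq GRCm38.p6 by accession (22951 probes) or symbol (6659 current, 3109 older), and 8455 kept the file's name. limma 3.58.1 in R 4.3.3 (lmFit, eBayes, Benjamini-Hochberg) gave the tests, without slide in the main fit, and was tested on simulated data.

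In the deposited value table, per its ranks, each column of intensity values matched another replicate of the same group than its name says, so replicates are numbered by scanner file and the table served as an alternative; 0 sample columns were unmapped. Members and lists were chosen with earlier results of these data known. Named were all members, the 3 largest called rises and falls per pathway list, the 3 brightest tested genes per marker list with those called against its median (a selection is printed), and the 3 nearest genes per called member. Smaller heparan sulfate rises, smaller hyaluronan falls and further genes of the collagen list were added after seeing the data. Deviations of same-numbered arrays from their group means correlated at 0.174, -0.0685 and -0.0104.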

Additional observations from a re-analysis of the deposited data

How the results depend on the processing

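Lum, Ogn, Dcn, Bgn and Sdc4 kept direction and call under all 15 alternatives, with log2 fold changes of 2.59 to 2.97, 1.19 to 1.98, 1.07 to 1.78, 0.69 to 1.00 and -1.33 to -0.86. Sdc2 ranged from -0.64 to -0.09 and lost its call under 8. The count of members called lower was 1 in place of 2 under quantile normalization, without the filter on dim probes and with the slide as a replicate block, and 1 to 2 when 1 array was left out; called higher were 4 to 5 with 1 array left out, and 4 with the replicate block. Sdc1 turned sign under quantile normalization (0.0223), and Sdc3 under median scaling (-0.0331) and with the mean of its probes (-0.0383). The median of all tested genes moved to -0.31 under median scaling. Array-wide calls, 3776 higher and 4354 lower of 15911, became 2934 and 5815 under median scaling, and 3041 and 2460 of 27670 without the filter on dim probes. Of the 55 genes that the naming rule picks from the pathway lists, 36 held their call under every alternative run for them (chosen for these after seeing the data; 11 genes have no value under the filter on all 6 arrays) and 0 turned direction; calls that ended in at least 5 alternatives were those of Tsku, Acan, Gpc4, B4galt7, Extl1, Ndst2, Slc26a1 and Tiam1, and calls that ended in fewer were those of Chad, Nyx, Optc, Ugdh, Hs6st2, Csgalnact1, Ust, Slc35b3, Hyal3, Gusb and Fn1. Higher calls ranged from 6 to 10 for chondroitin and dermatan sulfate enzymes, 3 to 7 for heparan sulfate enzymes, 6 to 11 for proteases and 11 to 14 for collagens and partners. Stellate markers called higher ranged from 8 to 11, and bile duct markers from 4 to 9. Hepatocyte markers called lower ranged from 2 (quantile normalization) to 8. Filters also changed how many genes were tested. With probes well above background on all 6 arrays, the lows were 3 of 14 heparan sulfate enzymes, 6 of 8 proteases and 4 of 5 bile duct markers. Dim probes depend on the background correction: under normexp the log2 fold change was 0.46 for Fmod, 0.40 for Nyx, 0.35 for Optc, 1.69 for Gpc3, -0.34 for Chad, -0.92 for Cspg5, 0.54 for Chst12, 0.65 for Extl1, 0.71 for Hs3st1, 0.65 for Hs6st2, 0.88 for Thbs1, 1.76 for Col5a2 and 3.16 for Sdcbp2. Quantile normalization gave -0.41 for Col18a1, -0.36 for Hs6st1 and -0.50 for Ndst1, and the mean of a gene's tested probes gave -0.61 for Ndst1 and 1.49 for Adamts9.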
